A study of Homo sapiens with 3 samples.

Results

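Small nucleolar RNA (snoRNA) genes were examined in RNA-Seq data from the human colorectal cancer cell line DLD1, in which BEX2 had been disrupted with CRISPR/Cas9. The genes were those with a symbol of the SNORD or SNORA series whose mean level in the 3 libraries reached 1 FPKM. FPKM is the number of sequenced fragments scaled by the exon length of the gene and by the size of the library. This gave 46 genes, 28 of the box C/D class (SNORD) and 18 of the box H/ACA class (SNORA), out of 529 SNORD and SNORA genes in a table of 60504 genes. The 46 genes were selected on these same FPKM values, so their levels are given as a description.

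The libraries came from DLD1 cells labelled wild type (1 library, called the control) and from BEX2-/- DLD1 cells (2 libraries, clone 1 and clone 2). All 3 were made from total RNA of the same cell line, and no treatment or time point was given. Each BEX2-/- library comes from 1 clone, and the control has no replicate. In such bulk samples, fewer cells with a transcript and less of it per cell cannot be told apart.

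snoRNAs are short non-coding RNAs that guide the chemical modification of other RNAs in the nucleolus, mainly ribosomal RNA. Box C/D snoRNAs direct ribose methylation through the methyltransferase FBL, and box H/ACA snoRNAs direct the conversion of uridine to pseudouridine through the synthase DKC1. In human cells most snoRNAs lie in introns of host genes. They are released from the spliced intron by debranching and exonuclease trimming, and the proteins bound to them protect the mature RNA. The TruSeq RNA kit selects polyadenylated RNA, and mature snoRNAs have no poly(A) tail. In a table of values per gene, fragments of mature snoRNA and fragments of unspliced host RNA cannot be told apart.

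The sequences below are those of the most abundant gene of each class and of the 3 genes that differed at least 2-fold in both clones. The sequences of a pair from the same family and of a gene with neither box in the windows searched are also given. They are read from the GRCh38 genome at the positions of GENCODE release 29, 5′ to 3′ on the strand of the gene. In box C/D genes, capitals mark TGATGA (box C) within the first 20 bases and CTGA (box D) within the last 15 bases. In box H/ACA genes they mark ACA within the last 8 bases.

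SNORD104: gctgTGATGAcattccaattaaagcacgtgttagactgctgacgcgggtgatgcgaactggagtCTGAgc
SNORA33: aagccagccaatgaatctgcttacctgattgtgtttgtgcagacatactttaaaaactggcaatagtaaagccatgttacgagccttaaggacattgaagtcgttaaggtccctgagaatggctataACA
SNORA66: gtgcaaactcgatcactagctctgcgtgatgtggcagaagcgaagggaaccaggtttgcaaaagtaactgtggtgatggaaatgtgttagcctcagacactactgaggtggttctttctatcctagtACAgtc
SNORD123: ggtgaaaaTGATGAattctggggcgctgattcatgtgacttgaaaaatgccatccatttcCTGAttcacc
SNORD117: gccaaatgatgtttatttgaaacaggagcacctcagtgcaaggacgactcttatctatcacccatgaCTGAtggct
SNORD14A: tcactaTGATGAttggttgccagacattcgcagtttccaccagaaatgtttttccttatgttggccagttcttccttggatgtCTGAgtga
SNORD14E: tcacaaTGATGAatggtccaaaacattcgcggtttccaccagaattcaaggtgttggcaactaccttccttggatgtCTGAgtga
SNORD19C: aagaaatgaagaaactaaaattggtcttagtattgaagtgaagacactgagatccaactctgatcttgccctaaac

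SNORD104 lies at chr17:64146083-64146152 on the plus strand, in an intron of the non-coding gene SNHG25. SNORA33 lies at chr6:132817219-132817348 on the plus strand, in an intron of RPS12. SNORA66 is at chr1:92840719-92840851 on the plus strand, in an intron of RPL5. SNORD123 is at chr5:9548836-9548905 on the plus strand in SNHG18, and SNORD117 at chr6:31536374-31536449 on the minus strand in DDX39B. SNORD14A is at chr11:17074654-17074744 in RPS13 and SNORD14E at chr11:123058077-123058161 in HSPA8, both on the minus strand and both intronic. SNORD19C is at chr3:52691378-52691453 on the plus strand in an intron of GNL3.

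Box D was the most regular feature of the C/D genes. CTGA stood in the last 15 bases of 26 of 28 C/D members, 0 of 18 H/ACA members and 249 of the other 285 C/D genes (87.4%). On the reverse complement, the same search found it in 2 of 28. TGATGA stood in the first 20 bases of 19 of 28 C/D members and of 65.3% of the other C/D genes, and of 0 of 18 H/ACA members. All 19 also held CTGA. ACA stood in the last 8 bases of 16 of 18 H/ACA members, of 81.8% of the other 198 H/ACA genes and of 7 of 28 C/D members. SNORD19C and SNORD19 held neither box within these windows, but in both a CTGA begins just outside the last 15 bases. SNORA70 and SNORA71B held no ACA in the last 8 bases. An exact match of these letters is a description, and other forms of the boxes were not searched.

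The genes were short, and their values rest on few fragments. The annotated length had a median of 76.5 nt in C/D members (68 to 237 nt) and of 134 nt in H/ACA members (122 to 272 nt). Depth recovered from the FPKM values was 47458851 reads in the control, 35593989 in clone 1 and 47722374 in clone 2. A value is a whole multiple of what 1 read is worth on that gene, and this step had a median of 0.275, 0.367 and 0.274 FPKM in C/D members and of 0.157, 0.210 and 0.156 FPKM in H/ACA members. All 138 values of the 46 genes were whole numbers of reads within 0.02. Over the 3 libraries together the genes had between 12 and 679 reads each, with a median of 67, against a median of 3688 for the 10555 genes past the filter whose reads could be recovered. There were 13 genes with more than 100 reads in all and 19 with fewer than 50. Only 28 genes had at least 10 reads in each library.

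The identity of the libraries could not be checked on the targeted gene. BEX2 (ENSG00000133134) stood at 0 FPKM in every library. A count of 3 reads would give 0.0538, 0.0717 and 0.0535 FPKM in the control, clone 1 and clone 2. The epithelial markers EPCAM, CDH1, KRT8 and KRT18 were present in all 3, with KRT8 at 538, 510 and 611 FPKM. CDH1, the lowest of these, had 42.6, 53.9 and 50.5 FPKM. Of the intestinal markers, VIL1 differed between libraries (3.61, 13.2 and 0.221 FPKM). CDX2, with 33.3, 43.2 and 24.0 FPKM, was also highest in clone 1 and lowest in clone 2. CDX1 was under 1 FPKM in every library (0.455, 0.815 and 0.0834 FPKM). The part of these differences in the results below was not tested. Of 11 markers of fibroblasts, leukocytes, endothelium and erythroid cells, none reached a mean of 1 FPKM. Summed FPKM ranged from 0.0315 to 0.0875 for fibroblasts, from 0.729 to 0.793 for leukocytes and from 0.0649 to 0.0784 for endothelium, with COL3A1, PTPRC and HBB among those listed at 0 in every library.

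Most snoRNA genes were not seen in these libraries. Of 529 genes, 409 (77.3%) were listed at 0 in all 3 libraries and 74 had a mean above 0 and under 1 FPKM. The share listed at 0 was 82.7% for C/D genes and 69.4% for H/ACA genes. The members just inside the threshold were SNORA59A (mean 1.26 FPKM, 25 reads in all), SNORD67 (1.07 FPKM, 15 reads) and SNORA5A (1.01 FPKM, 19 reads). Just outside it were SNORD11 (0.918 FPKM, 11 reads), SNORD1B (0.864 FPKM, 10 reads) and SNORA9B (0.825 FPKM, 14 reads).

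A few genes held a large share of the signal. SNORD104 had 78.0, 74.3 and 70.3 FPKM in the control, clone 1 and clone 2, from 259, 185 and 235 reads, and was the highest snoRNA gene in every library. SNORD99, in an intron of SNHG12, followed with 36.4, 33.4 and 24.6 FPKM. SNORA33, the highest H/ACA gene, had 33.7, 22.0 and 27.4 FPKM. Both SNORD99 and SNORA33 were highest in the control. The 3 C/D genes with the most reads held 47.6%, 46.6% and 39.2% of the C/D reads of each library, and the 3 leading H/ACA genes 47.3%, 40.6% and 53.4% of the H/ACA reads. The 10 highest genes of each library had 8 in common, SNORD104, SNORD99, SNORA33, SNORD14A, SNORD14E, SNORD63B, SNORD62B and SNORD101.

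**Figure D1:**
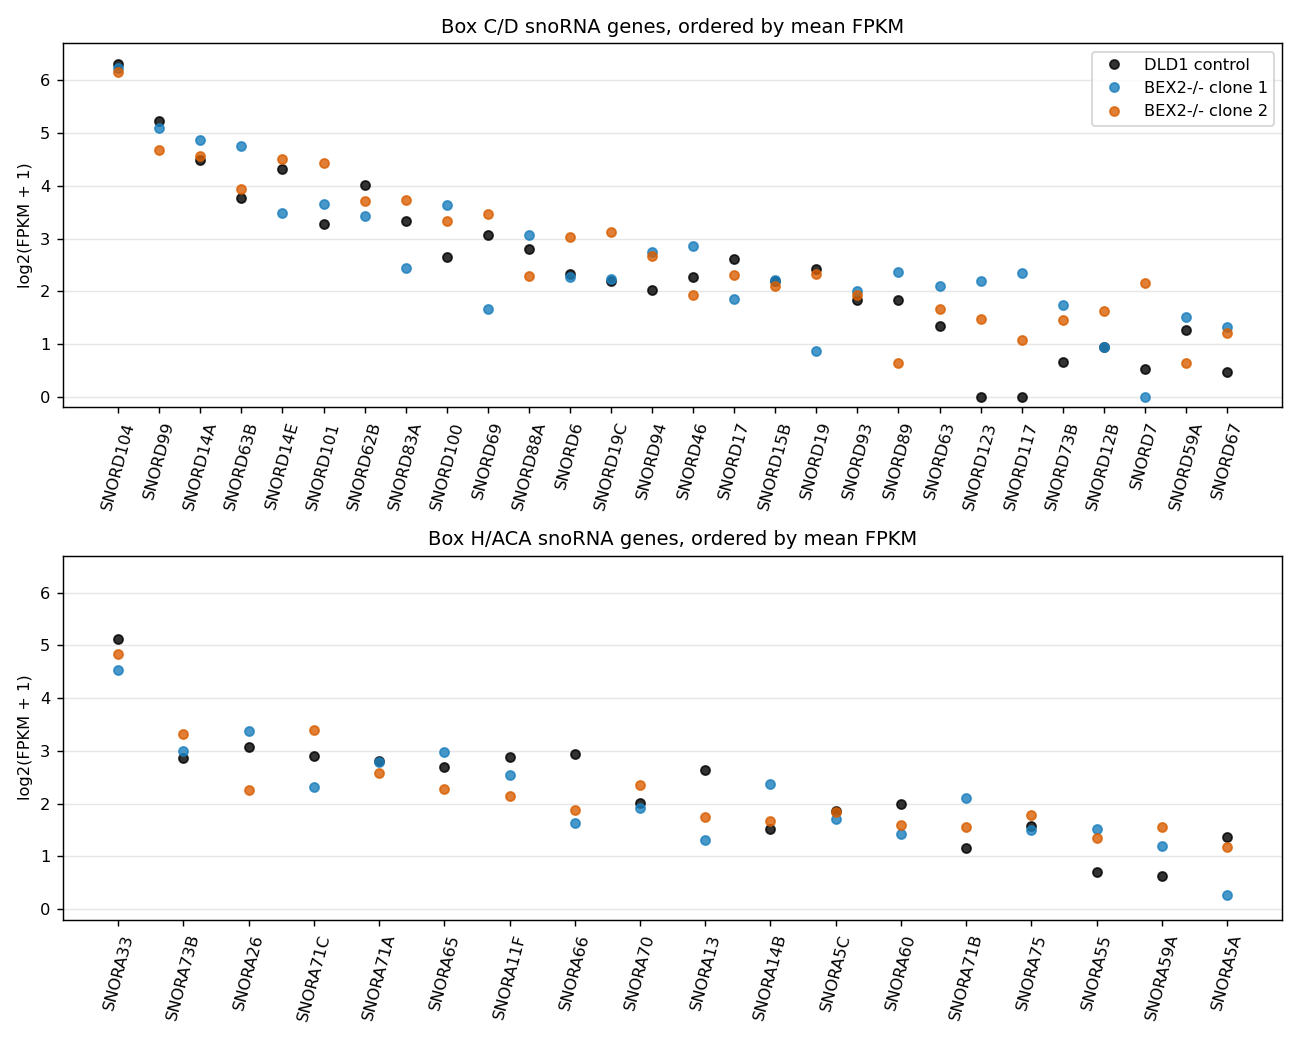
Level of each snoRNA gene as log2(FPKM + 1) in the DLD1 control (black), BEX2-/- clone 1 (blue) and BEX2-/- clone 2 (orange), with 28 box C/D genes above and 18 box H/ACA genes below, ordered by mean FPKM; each point is 1 library. SNORD104 stands highest in every library, and the order of the 3 libraries varies from gene to gene.

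Among the other leading C/D genes, libraries changed order from gene to gene. SNORD14A, a guide of the U14 family, had 93, 92 and 99 reads in the control, clone 1 and clone 2 (21.5, 28.4 and 22.8 FPKM). SNORD14E of the same family had 76, 31 and 88 reads (18.8, 10.2 and 21.7 FPKM). The U14 family takes part in the processing of the small-subunit rRNA precursor as well as in its methylation. Of these family members, clone 1 had the highest SNORD14A level and the lowest SNORD14E level. SNORD63B had 42, 65 and 48 reads (12.6, 26.1 and 14.4 FPKM), highest in clone 1. SNORD62B had 62, 30 and 50 reads (15.2, 9.80 and 12.2 FPKM), highest in the control. SNORD62B is 100% identical to SNORD62A, which had a mean of 0.407 FPKM, so how reads were split between the copies is uncertain.

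SNORD83A, in RPL3, had 41, 15 and 56 reads and was lowest in clone 1. SNORD17, in SNX5 and the longest C/D member, had 58, 22 and 45 reads and was lowest in clone 1 as well. SNORD101 had 30, 30 and 72 reads, and SNORD100 had 19, 31 and 33 reads. Both lie in introns of RPS12. In FPKM the control was lowest for both, with 8.66, 11.5 and 20.7 FPKM for SNORD101 and 5.27, 11.5 and 9.10 FPKM for SNORD100. Clone 2 was highest for SNORD101 and clone 1 for SNORD100.

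H/ACA genes after SNORA33 lay closer together. SNORA73B, a member of the U17 family, which acts in ribosomal RNA processing, had 61, 51 and 87 reads (6.30, 7.02 and 8.94 FPKM). SNORA26, in the non-coding gene DANCR, had 43, 41 and 22 reads (7.43, 9.44 and 3.78 FPKM). SNORA65, in RPL12, had 34, 32 and 24 reads (5.51, 6.92 and 3.87 FPKM). Clone 2 was thus highest for SNORA73B and lowest for SNORA26 and SNORA65. SNORA11F had 39, 22 and 21 reads and SNORA70 had 22, 15 and 30 reads. SNORA11F has no annotated host gene on its strand and lies opposite NUDT13. As the kit does not mark strand, reads of SNORA11F and NUDT13 cannot be told apart here. The symbol SNORA70 belongs to 27 identifiers of the table, and the symbols SNORA75 and SNORD63 to 7 and 3, so these members are uncertain where reads fit several copies. Apart from SNORD62B, 5 members were at least 90% identical to another snoRNA gene of the table: SNORA11F, SNORA73B, SNORA75, SNORD88A and SNORA14B.

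The order of the C/D and H/ACA classes in level per length varied between libraries. The median level was 3.95, 3.96 and 3.99 FPKM for the 28 C/D genes and 4.13, 3.03 and 2.64 FPKM for the 18 H/ACA genes in the control, clone 1 and clone 2. The C/D median was below the H/ACA median in the control and above it in both clones. The medians include 6 C/D and 2 H/ACA genes that were under 1 FPKM in the control and passed the filter through the clones. The change of order is therefore not evidence of a difference between the classes. In reads, which are not corrected for length, the medians were 19, 16 and 24 for C/D genes and 27.5, 17 and 19 for H/ACA genes. The ratio of the C/D to the H/ACA median averaged 1.26 over libraries, and 1.96 among genes with at least 10 reads in each library. Since the genes were chosen by level, no test of the classes was made.

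Summed over genes, the C/D genes had 21.3 RPM (reads per 1000000 reads of the library) in the control (95% exact Poisson interval 19.97 to 22.6), 22.0 in clone 1 (20.5 to 23.6) and 22.5 in clone 2 (21.2 to 23.9). The ratio to the control was 1.04 (0.943 to 1.14) for clone 1 and 1.06 (0.971 to 1.16) for clone 2. The C/D sums include 6 genes under 1 FPKM in the control that passed the filter through the clones. Part of these ratios is therefore built into the selection. Without the filter, the mean C/D ratio of the clones to the control was 1.04, against 1.05 with it. The H/ACA genes had 13.8 RPM in the control (12.8 to 14.9), 11.9 in clone 1 (10.8 to 13.1) and 12.5 in clone 2 (11.5 to 13.5). These sums were below the control in both clones, with a ratio of 0.862 (0.761 to 0.9752) for clone 1 and of 0.904 (0.807 to 1.01) for clone 2. The interval left out 1 in clone 1 and held 1 in clone 2. Without the filter, the mean H/ACA ratio of the clones to the control was 0.911, against 0.883 with it. SNORA33 held 208, 102 and 170 of the 656, 424 and 596 H/ACA reads. Without the 3 genes with the most reads, of which only SNORA33 is H/ACA, the mean H/ACA ratio was 0.952, against 0.883. All intervals cover counting error only, and the spread between control cultures is not known. For all 46 genes the sums were 35.1, 33.9 and 35.0 RPM.

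The BEX2-/- clones were compared with the control gene by gene on the log2(FPKM + 1) scale, which understates differences of low genes. At least 2-fold differences were seen for 8 of 46 genes in clone 1 (17.4%; 2.06% of all 11720 genes past the filter) and for 6 of 46 in clone 2 (13.0%; 2.04% of all genes). Between the clones themselves, 9 of 46 differed that much (19.6%; 4.32% of all genes). More genes therefore differed between the 2 BEX2-/- clones than between either clone and the control. Among the 237 other genes of under 300 nt past the filter, a comparison chosen after the values were seen, the shares were 17.7%, 21.1% and 20.3%. The shares for snoRNA genes lay close to those for other short genes in clone 1 and between the clones, and below them in clone 2.

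The differences were the same way in both clones for 3 genes (6.52%). SNORD123 and SNORD117 were higher, against 0.162% of all genes, and SNORA66 was lower, against 0.145% of all genes. Of the other short genes, 10 were higher (4.22%) and 7 lower (2.95%) in both clones. Together, snoRNA and other short genes made up 55.6% of the 36 genes past the filter that differed in both clones.

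SNORA66 had 42 reads in the control, 10 in clone 1 and 17 in clone 2 (6.65, 2.11 and 2.68 FPKM). The control was above both clones, and the log2 ratio was -1.30 for clone 1 and -1.06 for clone 2. In reads per depth the fold was 0.317 (95% exact interval 0.142 to 0.643) and 0.403 (0.215 to 0.722). Its host RPL5, a protein of the large ribosomal subunit, had 406, 356 and 398 FPKM. SNORA66 also lies opposite DIPK1A, and the kit does not mark strand, so reads of the 2 genes cannot be told apart here.

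SNORD123 had 0 reads in the control, 9 in clone 1 and 6 in clone 2 (0, 3.61 and 1.80 FPKM). Against a floor of 3 reads in the control, which a count of 0 allows, the clone 1 level was at least 4.0-fold higher, and the clone 2 level at least 1.99-fold higher, with the reads of the clones taken as exact. The 95% interval, which also holds their counting error, started at 2.63 and 1.17. Its host SNHG18 had 4.88, 4.16 and 4.36 FPKM. SNORD117 had 0, 11 and 4 reads (0, 4.07 and 1.10 FPKM), and was at least 4.89-fold higher in clone 1 against the same floor, with an interval that started at 3.35. In clone 2 its 4 reads gave an interval that held 1. Its host DDX39B, an RNA helicase of splicing and export, had 23.4, 30.3 and 24.5 FPKM. SNORD123 and SNORD117 passed the filter on the clones alone, so a difference from the control was built into their selection. In all, 8 of the 46 genes were under 1 FPKM in the control: besides these, SNORD73B, SNORA55, SNORD12B, SNORD7, SNORA59A and SNORD67. All 8 reached the mean of 1 FPKM through 1 or both clones, and counts of differing genes that include them are not evidence about snoRNA genes.

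limma, which fits all genes together with the spread taken from the 2 clones (1 residual degree of freedom), called 0 of 46 snoRNA genes and 0 of 11720 genes (0.0%) at an adjusted p under 0.05. At an unadjusted p under 0.05 it found 8 of 46 snoRNA genes (17.4%) and 137 of all genes (1.17%). Of these 8 genes, 4 (SNORD123, SNORD73B, SNORA55 and SNORD67) were under 1 FPKM in the control and passed the filter through the clones. The smallest p of limma among snoRNA genes was 0.00809, for SNORA66 (log2 difference -1.18, SE 0.221, adjusted p = 0.99989). The 95% interval of the log2 difference had a median half-width of 0.850 in snoRNA genes and of 0.636 in all genes. Differences within such an interval were not detectable with these libraries. The intervals are not adjusted for the number of genes, so larger differences could also go uncalled, as that of SNORA66 did.

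Counting intervals of single genes left out a fold of 1 less often for snoRNA genes than over all genes, which have more reads. The 95% interval of the fold in reads left out 1 for 16 of 46 genes in clone 1 (64.2% of all 10555 genes with recovered reads), for 12 in clone 2 (69.7%) and for 13 between the clones (69.7%). These shares scale with the number of reads, and the intervals hold no variation between cultures. Of the 46 genes, 28 had an interval that left out 1 in at least 1 of the 3 comparisons. It did so in both clones against the control for SNORA66, SNORA13 and SNORD123, the last of which passed the filter through the clones alone. The shares of all genes over several comparisons were not counted, so these counts are not a result about snoRNA genes.

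SNORA13 had 33, 7 and 15 reads (5.23, 1.48 and 2.36 FPKM), with folds of 0.283 (0.106 to 0.650) and 0.452 (0.228 to 0.856). Both clones were below the control, but the log2(FPKM + 1) ratio of -0.89 in clone 2 did not reach 2-fold. Its host EPB41L4A-AS1 had 4.87, 3.34 and 4.03 FPKM, and the gene EPB41L4A lies on the opposite strand. The other genes with the most distant intervals differed in 1 clone. SNORD89 had 14, 17 and 3 reads, which made clone 2 the low library, with a fold to clone 1 of 0.132 (0.0247 to 0.455). SNORD7 had 2, 0 and 16 reads and passed the filter through clone 2 alone. SNORD101 was high in clone 2, with a fold to the control of 2.39 (1.54 to 3.79), and SNORA26 was low in it, with a fold of 0.509 (0.290 to 0.870). SNORD69 and SNORD83A were low in clone 1, with folds to the control of 0.296 (0.10 to 0.733) and 0.488 (0.251 to 0.9001).

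**Figure D2:**
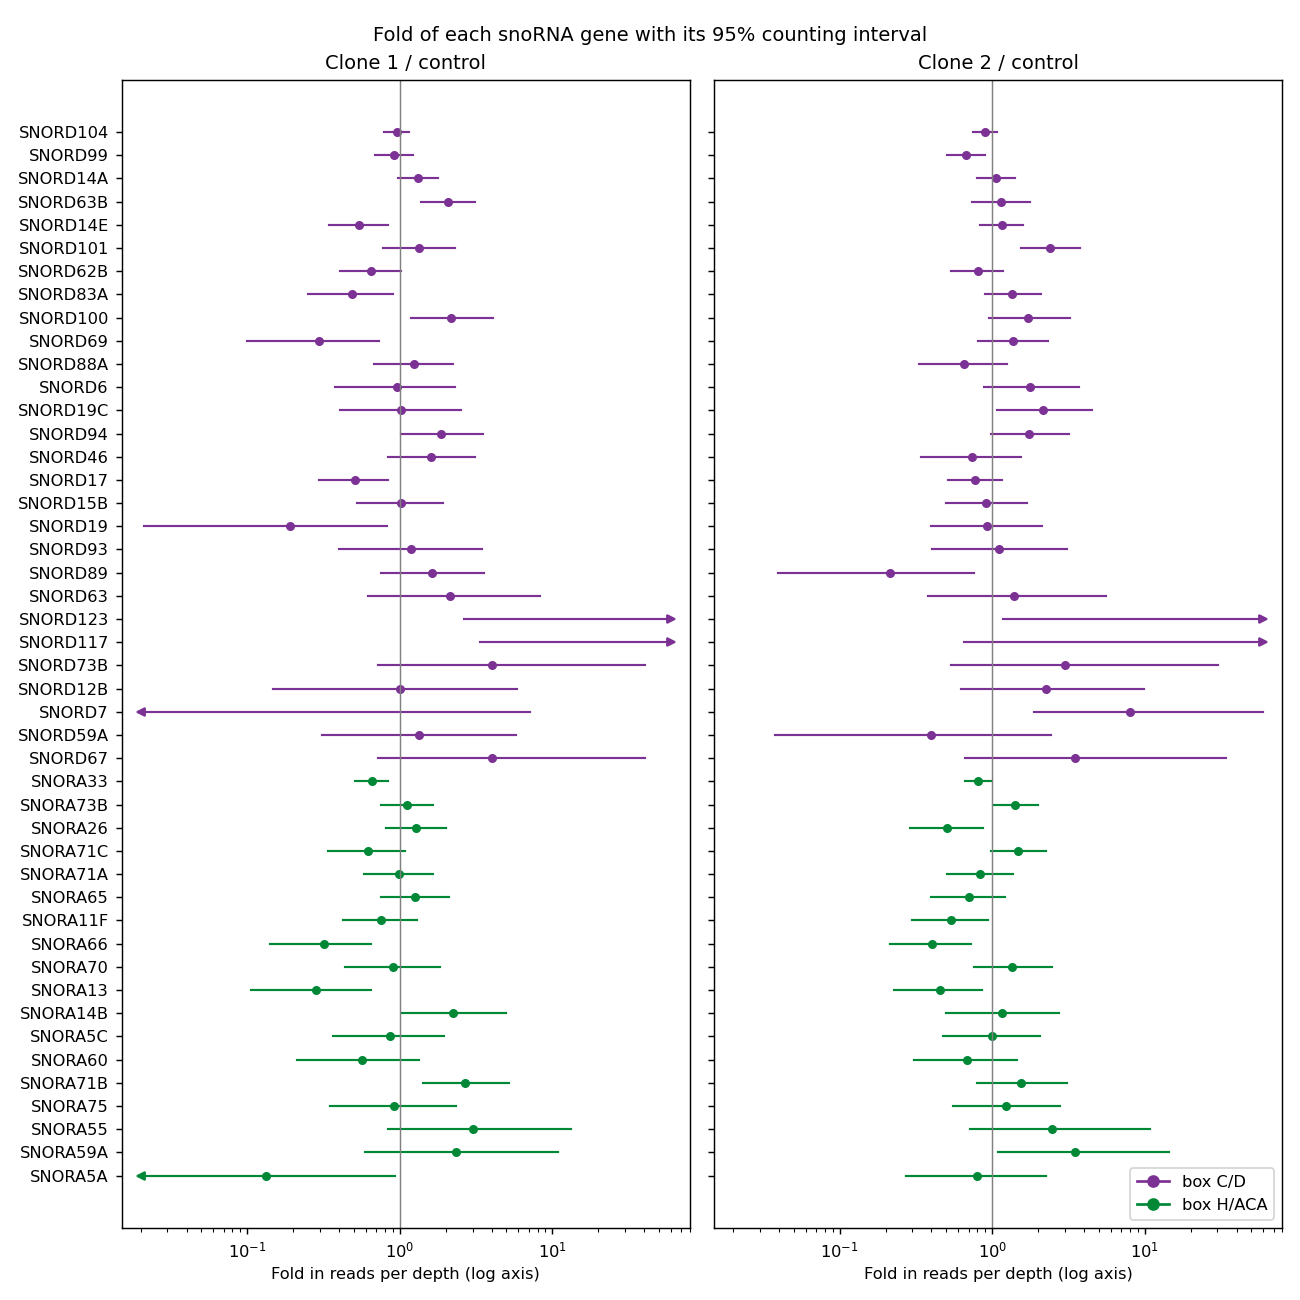
Fold in reads per depth of each snoRNA gene in BEX2-/- clone 1 (left) and clone 2 (right) over the DLD1 control, on a log axis, with 95% exact counting intervals as lines; purple is box C/D, green is box H/ACA, and arrows mark intervals that run past the axis or start from 0 control reads. The intervals of SNORA66 and SNORA13 lie below 1 and that of SNORD123 above 1 in both panels, and most intervals span 1 in at least 1 panel.

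Ratios to the control lay on both sides of 0 in both classes. On the log2(FPKM + 1) scale, 17 of 28 C/D genes were above the control in clone 1, with 1 tie (SNORD12B, within 0.001), and 18 in clone 2, with median ratios of 0.22 and 0.25. Of 18 H/ACA genes, 7 were above it in clone 1 and 8 in clone 2, with medians of -0.09 and -0.10. Of all 11720 genes past the filter, 6610 were above the control in clone 1 and 5718 in clone 2, with medians of 0.04 and -0.01. The class counts include the genes that passed the filter only through the clones, 4 of them C/D genes above the control in both clones. The classes were therefore not tested against each other. The clones share the control library, so their ratios to it are not independent of each other. The quartiles of the C/D ratios, -0.22 and 0.73 in clone 1 and -0.18 and 0.71 in clone 2, lay on both sides of 0, as did those of the H/ACA genes.

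Host genes were found for 45 of the 46 genes, in 37 host genes on the same strand. Where several genes spanned the snoRNA gene, which held for 3 members (SNORA73B, SNORD17 and SNORD117), the one with the highest mean FPKM was taken. Of these, 26 code for protein and 11 do not. Ribosomal protein genes, such as RPS12, RPS13, RPL3 and RPL5, hosted 10 genes, and 7 SNHG genes, non-coding hosts whose name refers to their snoRNAs, hosted 9. Of the C/D genes, 22 lay in protein-coding hosts and 6 in non-coding hosts, while 10 H/ACA genes lay in the former and 7 in the latter.

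The relation between the level of a snoRNA gene and that of its host depended on which genes were taken. Across the 45 genes, the Spearman correlation of FPKM was 0.333 in the control, 0.340 in clone 1 and 0.2702 in clone 2, as a description over genes of which several share a host. The Pearson correlation was 0.257, 0.234 and 0.250. The mean Spearman value over libraries, 0.314, was 0.079 for genes with a mean of at least 5 FPKM and 0.433 for genes in protein-coding hosts. Within classes the Spearman value was 0.273, 0.207 and 0.198 for 28 C/D genes and 0.424, 0.545 and 0.317 for 17 H/ACA genes. The host was higher than the snoRNA gene in most cases, with a median host-to-snoRNA ratio of 11.8, 9.57 and 8.07 among genes above 0. The snoRNA gene was higher than its host in 5, 3 and 6 of 45 cases.

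SNORD104 was the clearest of these. Its host SNHG25 had 3.41, 1.11 and 2.94 FPKM, against 78.0, 74.3 and 70.3 FPKM for SNORD104 itself. SNHG25 was the single host with a 2-fold difference (log2 ratio -1.06 in clone 1), where the SNORD104 ratio was -0.07. The second snoRNA gene of SNHG25, SNORA50C, was listed at 0 in every library. SNORD99 (36.4, 33.4 and 24.6 FPKM) was likewise above its host SNHG12 (16.5, 14.1 and 16.0 FPKM). At the other end, SNORD59A had 1.40, 1.87 and 0.559 FPKM in ATP5F1B, a subunit of ATP synthase, which had 396, 419 and 373 FPKM.

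**Figure D3:**
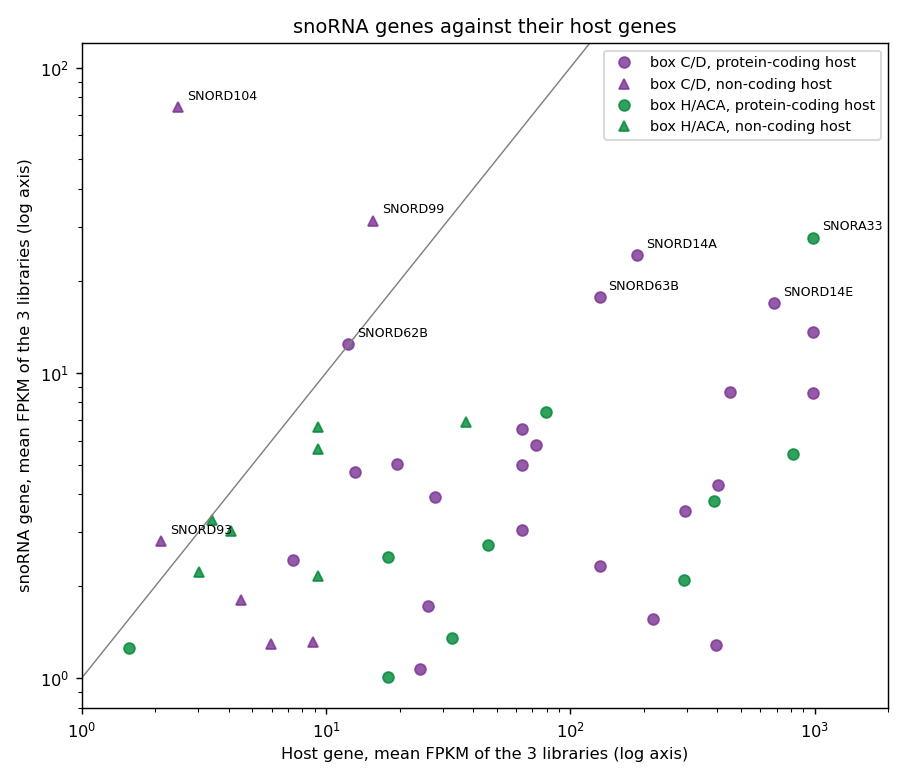
Mean FPKM of each snoRNA gene over the 3 libraries against that of its host gene, both on log axes; purple is box C/D, green is box H/ACA, circles are protein-coding hosts, triangles non-coding hosts, and the grey line marks equal levels. SNORD104 and SNORD99 lie above the line, and genes in ribosomal protein hosts such as SNORA33 lie far below it.

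Differences between libraries were not shared closely by snoRNA and host either. The Spearman correlation of their log2 ratios over 45 genes was 0.151 for clone 1 and 0.083 for clone 2 against the control and 0.185 between the clones. The median size of the log2 ratio was 0.57, 0.42 and 0.46 for the snoRNA genes and 0.19, 0.12 and 0.17 for their hosts. The hosts had many more reads, and the part of counting error in this gap was not tested.

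Members of the same host differed in the order of the libraries, and several of these orders lay within counting error. RPS12, a protein of the small ribosomal subunit, had 994, 912 and 1063 FPKM. Of its 3 snoRNA genes, SNORA33 (208, 102 and 170 reads) was highest in the control, SNORD101 in clone 2 and SNORD100 in clone 1 per depth. For SNORD100 the fold of clone 2 to clone 1 was 0.794 (0.471 to 1.34), an interval that held 1. GNL3, a nucleolar GTP-binding protein, had 67.5, 61.9 and 61.0 FPKM. Its SNORD69 had 27, 6 and 37 reads, SNORD19C had 13, 10 and 28, and SNORD19 had 14, 2 and 13. Clone 1 was lowest for SNORD69 and SNORD19, while SNORD19C was about equal in the control and clone 1 (3.604 and 3.70 FPKM) and highest in clone 2 (7.72 FPKM). SNHG17 had 10.4, 9.01 and 8.36 FPKM, and its SNORA71C, SNORA71A and SNORA71B had 41, 19 and 61, then 38, 28 and 32, then 16, 32 and 25 reads. SNORA71C was lowest in clone 1 where SNORA71B was highest. The fold of clone 1 to the control was 0.618 (0.339 to 1.09) for SNORA71C, an interval that held 1, and 2.67 (1.42 to 5.20) for SNORA71B. For SNORA71A the interval held 1 in every comparison. SNORA71C and SNORA71A share 84.3% of their bases, and SNORD14A and SNORD14E, printed above, 79.1%.

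Genes of the same host were also split between detected and not detected. In HSPA8 (586, 600 and 866 FPKM), SNORD14E was seen, while SNORD14C and SNORD14D were listed at 0 in all libraries. In TAF1D, SNORD6 had 14, 10 and 25 reads and 7 others were listed at 0. All of these genes at 0 overlap an exon of some annotated transcript form of the host, and SNORD14E and SNORD6 overlap no exon.

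This held across the table, in a comparison chosen after the values were seen. Of the snoRNA genes with a host of at least 10 FPKM, 111 of 125 listed at 0 in every library overlapped an exon of another gene, the host included (88.8%), against 2 of 32 members (6.25%) and 8 of 39 genes between (20.5%). Seen the other way, 30 of 75 genes without such an overlap were members (40.0%), and 2 of 121 with it (1.65%). Without a limit on the host level the shares with an overlap were 165 of 409 genes at 0 (40.3%) and 4 of 46 members (8.70%). The members with an overlap were SNORD63B and SNORD63 in HSPA9, SNORD89 in RNF149 and SNORD7 in SNHG30. How reads in overlapping exons were assigned is not given in the sources used here, and its part in the zeros was not tested. A listed 0 is therefore not taken as absence of the snoRNA.

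Members of the classes lay at different median distances within the intron. The distance from the end of the snoRNA gene to the next host exon had a median of 172 nt for 28 C/D genes (quartiles 83.5 and 571 nt) and of 758 nt for 17 H/ACA genes (quartiles 123 and 1903 nt). Between 60 and 90 nt from the exon, a spacing known to favour the assembly of C/D snoRNPs during splicing, lay 9 of 28 C/D members (32.1%), 3 of 17 H/ACA members and 46 of 244 C/D genes that were not members (18.9%). SNORD104 and SNORD99, the highest C/D genes, lay 77 and 68 nt from the exon. SNORD14A and SNORD14E, with 187 and 157 nt, lay outside this window, and SNORD17 lay 5672 nt away. Among genes that were not members the medians lay closer, at 436 nt for 244 C/D genes and 564 nt for 138 H/ACA genes, of which 15 (10.9%) lay between 60 and 90 nt. The distances of the classes overlapped widely, and no test was made.

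Genes for the proteins that make and carry snoRNAs were read from lists of 30 genes, all of which were in the table and past the filter. None differed 2-fold in clone 1 or in clone 2 (2.06% and 2.04% of all genes), and limma called none. In the core C/D proteins all 4 genes were below the control in both clones, and the median log2 ratios of clones 1 and 2 were -0.27 and -0.25. FBL, the methyltransferase, had 142, 103 and 112 FPKM, and the scaffold protein NOP56 had 90.2, 80.5 and 76.6 FPKM. NOP58 had 62.8, 57.1 and 51.8 FPKM and SNU13, which binds the RNA first, 60.6, 46.5 and 52.4 FPKM.

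The core H/ACA proteins gave the same picture, with all 4 below the control in both clones and medians of -0.21 and -0.27. DKC1, the pseudouridine synthase, had 48.2, 40.2 and 39.7 FPKM, and NHP2 had 53.9, 42.2 and 41.3 FPKM. NOP10 had 200, 187 and 169 FPKM and GAR1 22.5, 19.97 and 18.5 FPKM. These 8 genes lay below the control in both clones under all 3 scalings tried (as deposited, median ratio and TPM), with log2 ratios from -0.46 to -0.09 as deposited, but without a spread between controls the size of the difference cannot be set against an error.

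The other lists were mixed. Of 10 assembly factors, 5 were below the control in both clones and 1, RPAP3, was above it in both (9.80, 10.7 and 10.1 FPKM). RUVBL2, an ATPase of the assembly complex, had 63.5, 46.6 and 50.1 FPKM, and the adaptor PIH1D1 33.9, 27.5 and 24.8 FPKM. RUVBL1 had 19.1, 16.7 and 16.3 FPKM, and the H/ACA assembly factors NAF1 and SHQ1 had 6.004, 5.89 and 6.50 FPKM and 4.04, 3.98 and 4.01 FPKM. NOLC1, NUFIP1, ZNHIT3 and ZNHIT6 had log2 ratios between -0.34 and 0.05. The debranching enzyme DBR1, which opens the intron lariat, had 8.67, 8.20 and 7.14 FPKM.

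Of 4 genes of end trimming, PARN and EXOSC10 were above the control in both clones (11.9, 12.7 and 12.4, and 14.2, 16.5 and 15.5 FPKM), EXOSC3 was below it (11.6, 10.8 and 9.55 FPKM), and PAPD5 was on both sides (2.78, 3.83 and 2.73 FPKM). Of 7 genes of ribosome production, NCL, TCOF1, UBTF and RRN3 were below the control in both clones, POLR1B was above it, and NPM1 and POLR1A were on both sides. UBTF, a factor of ribosomal RNA transcription, showed the largest difference of these lists, with 30.7, 27.3 and 21.04 FPKM and a log2 ratio of -0.52 in clone 2. Over all 30 genes, 19 were below the control and 4 above it in both clones, while of all 11720 genes 27.1% were below and 32.7% above it in both. Both ratios share the control library, so a shared side is not independent evidence. The lists were chosen with earlier results of these data known.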

How the data were processed

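RNA-Seq libraries of the DLD1 control (1) and of 2 BEX2-/- clones (1 each) were analysed. The authors deposited FPKM values per gene. The submitters' processing notes list Trim Galore 0.3.7, STAR 2.5, Cufflinks 2.2.1, DESeq 1.22.1 and hg19, without roles, while many identifiers of the table belong to GRCh38 annotations. How reads of overlapping genes were assigned is not given in the sources used here.

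Symbols, positions, hosts and exon lengths were taken from GENCODE release 29 (GRCh38), in which all 529 snoRNA identifiers were found. Reads were recovered as FPKM times merged exon length times the depth at which low values became whole, as did 98.8% to 98.9% of the low values of single-transcript genes. A host was a gene on the same strand that spans the snoRNA gene, and the one with the highest mean FPKM where there were several. Ratios used log2(FPKM + 1), a mean of at least 1 FPKM and a 2-fold threshold in both clones. limma 3.58.1 with trend (R 4.3.3) was fitted to all 11720 genes with Benjamini-Hochberg adjustment. Folds of reads have exact binomial and sums exact Poisson intervals at 95%. Both cover counting error only, and p-values measure only the spread between 2 clones, which may be technical.

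The genes named were BEX2, the 10 genes of each class with the most reads, genes 2-fold different in both clones, genes of hosts with at least 3 members, the 10 with intervals farthest from a fold of 1, the genes next to the threshold, their hosts and the snoRNP lists. Genes named beyond these, and the overlap with exons and the comparison with other short genes, came after the values had been seen. The members and lists were chosen with earlier results of these data known. Methods were tested on simulated data. Python 3.11.15, numpy 2.4.6, pandas 2.3.3, scipy 1.17.1, Biopython 1.88 and matplotlib 3.10.9 were used. Alternatives were other pseudocounts, scalings, filters and thresholds and the omission of each clone. Results for some genes are left out here.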

Additional observations from a re-analysis of the deposited data

How the results depend on the processing

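The number of snoRNA genes at least 2-fold different the same way in both clones, 3 as reported, depended on the handling of low values. It was 8 (6 higher, 2 lower) with a pseudocount of 0.1 FPKM, 6 (5 higher, 1 lower) after scaling to TPM, 9 with a 1.5-fold threshold, 5 without a pseudocount and with values under 3 reads set to 3 reads, 1 (SNORA66) among genes with at least 10 reads in each library and 0 at a mean of at least 5 FPKM. With either clone left out it was 6 to 8. SNORA66 was counted in every alternative that held it. SNORD123 and SNORD117 were not counted once low values were set to 3 reads. limma called 0 snoRNA genes under all 6 alternatives, with 1 to 15 at an unadjusted p under 0.05. None of the snoRNP genes was counted under any of the 6 alternatives.

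The ratio of the C/D to the H/ACA median level, averaged over libraries, was 1.26 and moved to 1.56 at a mean of at least 5 FPKM and to 1.96 with at least 10 reads in each library. Without a filter both medians are 0 and no ratio was given. The mean Spearman correlation with the host was 0.314, and moved to 0.079 at a mean of at least 5 FPKM, 0.197 with at least 10 reads in each library and 0.433 for protein-coding hosts. The mean ratio of summed C/D reads of the clones to the control was 1.05. Summed FPKM scaled to TPM, which also changes the weight of genes by length, gave 1.11. The ratio of summed reads moved to 1.15 without the 3 genes with the most reads. The H/ACA ratio of 0.883 moved to 0.952 without these 3 genes, which include SNORA33. The cause was not tested. The snoRNA genes had few reads, with a median of 67 a gene over the 3 libraries, and the control had no replicate. No paired analysis was possible because there was 1 control library and the labels link it to neither clone.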
